A study of Mus musculus with 28 samples.

Results

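The genes described here encode collagens, other proteins of the extracellular matrix, and the enzymes and chaperone that modify collagen. They were given as a list of 37 names, and each gene was read from 1 probe set, the brightest on average across the 28 arrays of those assigned to that gene and no other. Of the 37 genes, 34 were measured in this way, out of 17097 genes in all, and Fbn1, Thbs1 and P4ha1 were not analysed here. The arrays measured RNA of CD45+ cells, the surface protein CD45 being carried by blood-derived cells, sorted from tumours grown in mice and lysed without culture. The tumours were B16.F10, a mouse melanoma line, or MC38, a mouse colon carcinoma line. Control hosts had the genotype Foxp3Cre-YFP and are called controls. The other hosts were Nrp1L/LFoxp3Cre-YFP, with loxP-flanked alleles of Nrp1, the gene of the co-receptor neuropilin-1, and are called Nrp1-deleted. Both genotypes therefore carry the Foxp3-driven Cre and YFP, and recombination is directed to cells that express Foxp3, chiefly regulatory T cells, while other cells keep Nrp1.

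MC38 tumours were taken on days 6, 12 and 18, with 2, 3 and 2 arrays of each genotype. For B16 there was an early day, with 2 arrays of each genotype, day 12, with 2, and day 18, with 3. The titles give the early B16 day as 8 and the source names as 6, so it is called early. No label says whether replicate arrays came from separate mice or whether mice were pooled, and each p-value therefore rests on the array-to-array spread, which may be technical. Values are log2 signals on the authors' scale, and a difference is the mean of Nrp1-deleted arrays minus the mean of control arrays. A gene is said to fall or rise where the adjusted p of the limma test, Benjamini-Hochberg over all 17097 genes, is under 0.05.

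Collagens are built from chains wound into a triple helix. Prolyl and lysyl hydroxylases modify the chains in the endoplasmic reticulum, the chaperone HSP47 (Serpinh1) escorts the folded molecule, and lysyl oxidases cross-link it outside the cell. Fibrillar collagens form the fibres of connective tissue, collagen VI forms beaded filaments around cells, collagen IV forms the sheet of the basement membrane, and small proteoglycans such as decorin bind the fibrils. In tumours this matrix is made mainly by fibroblasts and perivascular cells and in part by tumour cells, while macrophages are known for making fibronectin and collagens VI and VIII among others. The arrays read bulk RNA of a sorted population, so fewer cells of a type and less RNA per cell cannot be told apart. Nor can a different amount of RNA from other cells within the sort. Melanocytic markers, genes of the B16 line, summed to 13.63 to 14.13 (log2) on B16 day 18 control arrays. Which cells carried the matrix RNA was not tested.

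Nrp1 itself was lower on every Nrp1-deleted array than on every control array of the same tumour and day. Its difference was -0.54 ± 0.12 (SE) over the 3 MC38 days and -1.13 ± 0.12 over the 3 B16 days (adjusted p = 0.00267 and 2.249e-07). Taken singly, MC38 days 6, 12 and 18 did not pass in limma (adjusted p = 0.1212, 0.3077 and 0.1029), while each B16 day did. All 9 measured leukocyte markers, Ptprc (CD45) among them, lay above the median of all values, 3.64, in all 12 groups. The value distributions fell into 3 sets of arrays: B16 day 18 with MC38 day 12, MC38 days 6 and 18, and early B16 with B16 day 12. Genotype differences were always taken within a set, and levels of different sets are not on one scale. The limit of 3.64 is pooled over sets whose medians were 3.51, 3.66 and 3.79. Of the 34 genes, 24 had a mean above 3.64. Col1a2, Col12a1, Mfap5, Lum and Loxl1 lay at or below it on all 28 arrays, close to the bottom of the scale, which leaves little room for a fall. Tnc passed it on 1 array, Loxl2 on 4, Col15a1 on 7, Lox on 10 and Col1a1 on 13. With each set's own median as the limit, chosen after seeing the data, the same number of genes, 5, passed on no array, and these counts were 3 for Tnc, 3 for Loxl2, 12 for Col15a1, 9 for Lox and 14 for Col1a1. The type I collagen genes Col1a1 and Col1a2 were each read from a single named probe set, and 15588 probe sets have no gene name here, so their low values do not bear on type I collagen RNA as such.

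The promoters of 5 genes that fell in MC38, where Serpinh1, Sparc and Col3a1 fell in B16 too and Col6a1 and Col6a2 did not pass there, are shown first, as the 120 bases before the RefSeq gene start (build GRCm38.p6), 5′ to 3′ on the gene's strand. Matches on either strand to the TATA box, the CCAAT box, the GC box or the TEAD motif are in capitals, each spelled out beside its count. Col3a1 lies at chr1:45311418-45311537 on the plus strand, Col6a1 at chr10:76726045-76726164, Col6a2 at chr10:76623631-76623750, Serpinh1 at chr7:99353240-99353359 and Sparc at chr11:55420081-55420200, the last 4 on the minus strand.
Col3a1: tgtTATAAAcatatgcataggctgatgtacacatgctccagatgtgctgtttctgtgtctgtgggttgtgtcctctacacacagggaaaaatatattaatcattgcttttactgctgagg
Col6a1: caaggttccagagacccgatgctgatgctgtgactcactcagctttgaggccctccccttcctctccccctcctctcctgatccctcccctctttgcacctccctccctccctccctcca
Col6a2: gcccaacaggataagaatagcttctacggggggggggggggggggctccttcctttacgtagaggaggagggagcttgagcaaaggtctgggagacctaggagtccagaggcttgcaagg
Serpinh1: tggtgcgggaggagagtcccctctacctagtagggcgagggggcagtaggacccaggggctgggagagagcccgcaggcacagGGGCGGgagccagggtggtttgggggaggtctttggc
Sparc: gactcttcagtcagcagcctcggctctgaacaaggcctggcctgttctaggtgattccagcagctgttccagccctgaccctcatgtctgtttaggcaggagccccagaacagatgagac
The neighbouring collagen VI genes differ in these windows: Col6a1 holds a run of pyrimidines with no match, and Col6a2 a run of G. Col3a1 holds TATAAA starting 117 bases before its start, and Serpinh1 holds GGGCGG starting 37 bases before its start. Over 250 bases before the start, 22 measured members had a RefSeq window. The TATA box, searched as TATAAA on both strands, lay in 4 of the 22 (18.2%, against 13.0% of 27025 promoters of that length). The letters CCAAT lay in 6 (27.3% against 34.5%). The GC box, searched as GGGCGG, lay in 13 (59.1% against 33.0%). The TEAD motif, searched as CATTCC, lay in 1, Col3a1 (4.55% against 12.6%). These are counts of letters, with no test, and no one element was shared by all 22.

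In MC38 tumours, 23 of the 34 genes were lower in cells from Nrp1-deleted hosts and none was higher, where 12.3% of all genes were lower and 6.97% higher. The median difference of the 34 was -0.90, against -0.06 over all genes. The fall was at least 4-fold for 8 genes (Col6a1, Col6a2, Col5a2, Col5a1, Col3a1, Thbs2, Postn and Dcn) and at least 2-fold for 17. The shares of all genes at these fold limits were not counted. For 18 of the 34, every Nrp1-deleted array lay below every control array on all 3 days, against 5.09% of all genes.

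Among fibrillar collagens, Col3a1, Col5a1 and Col5a2 fell by over 2 log2 units. Col3a1, the chain of type III collagen, read 10.44 and 9.80 on day 6 control arrays and 7.77 and 8.64 on Nrp1-deleted arrays. On day 12 it read 10.43, 10.44 and 10.68 against 8.45, 7.11 and 7.18, and on day 18 10.66 and 10.51 against 8.89 and 8.92. On each day the lowest control array stood more than 1 unit above the highest Nrp1-deleted array. The difference was -2.18 ± 0.23 (SE; limma adjusted p = 8.153e-07).

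Col5a1 and Col5a2 encode chains of type V collagen, which nucleates fibrils of type I. Col5a1 read 8.03 and 7.34 against 4.28 and 4.65 on day 6, 7.48, 7.49 and 7.75 against 5.59, 4.67 and 4.80 on day 12, and 7.56 and 7.52 against 5.54 and 6.09 on day 18, control arrays first. Col5a2 read 6.83 and 6.07 against 3.59 and 4.46, then 6.98, 6.73 and 6.98 against 4.16, 3.46 and 3.69, then 6.66 and 6.13 against 4.24 and 3.95. The genotypes were apart on each day for both genes, and Col5a2 passed below 3.64 on 1 Nrp1-deleted array of day 6 and 1 of day 12. The differences were -2.50 ± 0.17 for Col5a1 and -2.62 ± 0.20 for Col5a2 (adjusted p = 2.128e-09 and 7.869e-09). Col1a1 differed by -0.30 (95% interval -0.57 to -0.03, adjusted p = 0.1226) and Col1a2 by -0.02 (-0.21 to 0.17), which did not pass.

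Col6a1 and Col6a2, of collagen VI, gave the largest differences of the 34 in MC38. Col6a1 read 7.30 and 6.40 on day 6 controls against 4.28 and 4.18 in Nrp1-deleted hosts, 7.41, 7.40 and 7.52 against 4.74, 3.47 and 4.48 on day 12, and 7.01 and 7.28 against 4.47 and 4.57 on day 18. Col6a2 read 7.64 and 6.91 against 4.81 and 4.79, then 8.02, 8.02 and 8.26 against 5.12, 4.34 and 4.28, then 7.76 and 7.49 against 5.30 and 5.65. The gap between the lowest control and the highest Nrp1-deleted array exceeded 1 unit on every day for both. The differences were -2.82 ± 0.17 and -2.72 ± 0.17 (adjusted p = 3.05e-10 for both). Col6a3, the third chain of the same molecule, fell by 1.73 ± 0.22 (adjusted p = 6.386e-06). On day 18 controls read 7.66 and 7.74 and Nrp1-deleted arrays 5.89 and 7.37, so that 1 of these came close to the controls without overlap.

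**Figure D1:**
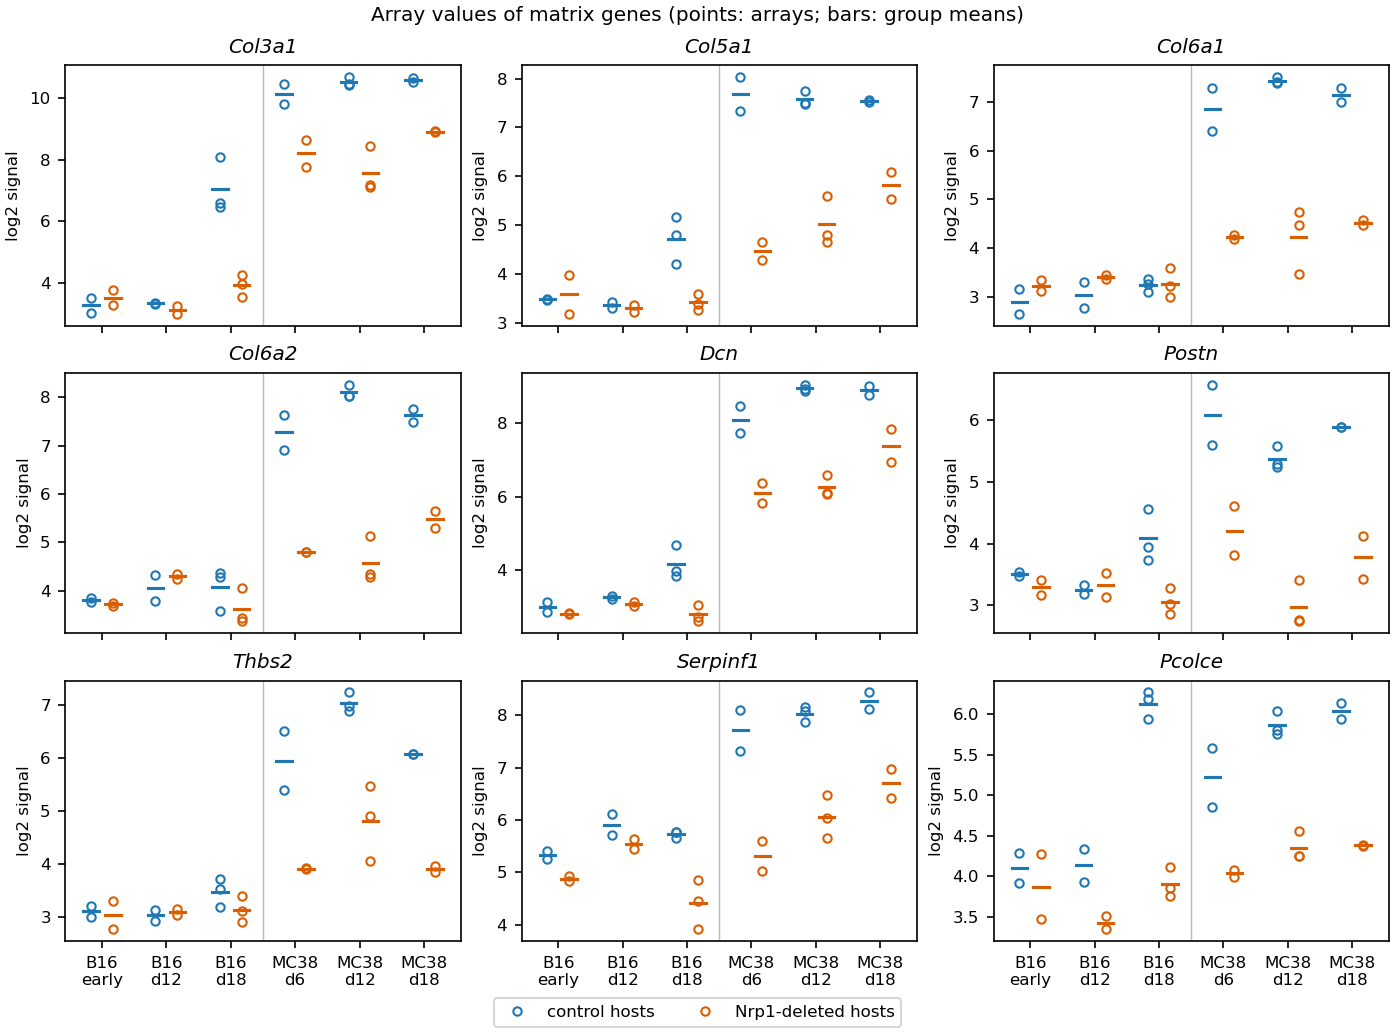
Log2 signal of 9 matrix genes on each of the 28 arrays (points), with group means (bars), by tumour and day; blue, control hosts; orange, Nrp1-deleted hosts. In MC38 all Nrp1-deleted points lie below all control points of the same day; B16 differences are seen mainly at day 18, and levels in different array sets are not on one scale.

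The basement membrane chains Col4a1 and Col4a2, which are transcribed from neighbouring starts, fell by like amounts in MC38, -1.61 ± 0.16 and -1.61 ± 0.15 (adjusted p = 2.435e-07 for both). Col4a1 read 7.16 and 6.64 against 4.77 and 5.32 on day 6, 7.13, 7.46 and 7.28 against 5.58, 5.38 and 4.84 on day 12, and 6.95 and 6.38 against 5.46 and 5.97 on day 18. Col4a2 read 6.01 and 5.27 against 4.17 and 4.18, then 6.33, 6.79 and 6.39 against 4.47, 3.99 and 4.49, then 5.86 and 5.4 against 4.26 and 4.64. The 2 genotypes were closest on day 18 for both genes. Col8a1, a short-chain network collagen, fell by 1.04 ± 0.16 (adjusted p = 4.912e-05). Col15a1 (-0.27, 95% interval -0.53 to -0.01) and Col18a1 (-0.36, -0.66 to -0.06), the basement membrane collagen that yields endostatin, did not pass (adjusted p = 0.1387 and 0.08899). With the mean over its probe sets, Col18a1 was lower (-0.38, adjusted p = 0.005594).

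Col14a1, a collagen that decorates fibrils, did not share this pattern. It read 7.45 and 7.69 on day 6 controls against 6.77 and 5.03, 9.58, 9.12 and 9.55 against 9.75, 9.94 and 8.96 on day 12, and 9.40 and 9.24 against 8.74 and 8.72 on day 18. The genotypes overlapped on day 12 and were apart on days 6 and 18. The mean difference was -0.71 ± 0.19 (adjusted p = 0.01167), and day 6 gave -1.67 by itself (adjusted p = 0.0135). It rests on 1 array: without day 6 Nrp1-deleted replicate 2 (5.03), the mean difference was -0.42 (adjusted p = 0.06124). Col12a1, its relative, was at or below the median of all values on all arrays and differed by 0.01.

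Of the 7 measured matrix glycoproteins, 5 fell in MC38. Postn, the fibroblast-secreted adhesion protein periostin, read 6.58 and 5.60 against 3.81 and 4.60 on day 6, 5.24, 5.58 and 5.29 against 2.74, 2.77 and 3.42 on day 12, and 5.89 and 5.90 against 4.13 and 3.43 on day 18. Thbs2, thrombospondin-2, read 6.50 and 5.39 against 3.92 and 3.89, then 6.98, 7.24 and 6.89 against 5.46, 4.89 and 4.05, then 6.06 and 6.06 against 3.84 and 3.95. No day overlapped for either gene, and the differences were -2.13 ± 0.18 and -2.15 ± 0.18 (adjusted p = 3.123e-08 and 5.557e-08). Sparc, a collagen-binding glycoprotein, read 8.89 and 8.0 against 5.85 and 7.11 on day 6, 8.34, 8.69 and 8.31 against 7.06, 6.25 and 5.90 on day 12, and 8.43 and 8.40 against 7.08 and 7.46 on day 18. Fstl1, a secreted follistatin-like glycoprotein, read 7.28 and 6.48 against 4.82 and 5.10, then 6.97, 7.24 and 7.08 against 5.57, 5.06 and 4.83, then 6.94 and 6.53 against 5.36 and 5.99. They were separated on each day, most narrowly on day 18 for Fstl1, and fell by 1.72 ± 0.24 and 1.64 ± 0.18 (adjusted p = 1.711e-05 and 1.399e-06). Tnc, tenascin-C, fell by 0.38 ± 0.12 (adjusted p = 0.02947) from levels that passed 3.64 on 1 array only.

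Fn1, fibronectin, did not fall in MC38 although its signal was high on every array. It read 11.61 and 11.59 on day 6 controls against 12.28 and 11.47, 11.17, 10.80 and 11.48 against 11.73, 11.68 and 11.10 on day 12, and 11.10 and 10.80 against 11.61 and 11.23 on day 18. The genotypes overlapped on days 6 and 12, and on day 18 the Nrp1-deleted arrays were the higher ones. The difference was 0.37 ± 0.21 (95% interval -0.07 to 0.81, adjusted p = 0.2614), so a fall of more than 0.07 lies outside the interval.

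Dcn, decorin, fell furthest among the small leucine-rich proteoglycans. It read 8.47 and 7.73 against 5.84 and 6.37 on day 6, 8.88, 9.05 and 8.94 against 6.6, 6.11 and 6.09 on day 12, and 9.02 and 8.78 against 6.94 and 7.84 on day 18. The 3 days did not overlap, and the difference was -2.07 ± 0.16 (adjusted p = 1.364e-08). Bgn, biglycan, fell by 0.76 ± 0.18 (adjusted p = 0.00359). Lum, lumican, was dim throughout and differed by -0.20 (95% interval -0.42 to 0.02).

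Of the 8 measured modifying enzymes and helpers, 5 fell in MC38. Pcolce, which enhances cleavage of the procollagen C-propeptide, read 5.58 and 4.86 against 4.08 and 3.99 on day 6, 5.81, 6.04 and 5.75 against 4.56, 4.25 and 4.24 on day 12, and 5.95 and 6.14 against 4.39 and 4.37 on day 18. It was separated on each day, by -1.46 ± 0.14 (adjusted p = 2.313e-07). Serpinh1 fell by 1.92 ± 0.25 (adjusted p = 1.156e-05). Controls read 8.25 and 7.20, then 7.92, 8.30 and 8.06, then 7.88 and 7.75, against 5.22 and 5.34, then 6.59, 6.28 and 5.59, then 5.82 and 7.05 in Nrp1-deleted hosts. The groups were apart on every day.

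The hydroxylases moved less. P4ha2, a prolyl 4-hydroxylase subunit, read 5.92 and 5.66 against 4.91 and 4.63 on day 6, 6.48, 6.19 and 6.39 against 5.74, 5.61 and 5.62 on day 12, and 6.69 and 6.88 against 6.27 and 6.51 on day 18, with no overlap. It fell by 0.70 ± 0.15 and Plod2, the lysyl hydroxylase of telopeptides, by 0.73 ± 0.19 (adjusted p = 0.001698 and 0.007168). Plod1, a lysyl hydroxylase of the helix, read 6.6 and 6.77 against 6.85 and 6.41, then 7.46, 7.26 and 7.46 against 7.51, 7.65 and 7.47, then 7.25 and 7.49 against 7.10 and 7.29. The genotypes overlapped on days 6 and 18, the day 12 Nrp1-deleted arrays were slightly higher, and the difference was -0.03 (95% interval -0.26 to 0.20). Loxl1 fell by 0.45 ± 0.13 (adjusted p = 0.01688) at levels below 3.64, and Lox (-0.29, adjusted p = 0.0707) and Loxl2 (-0.01, 95% interval -0.31 to 0.30) did not pass. Lox was lower with the mean over its probe sets (-0.26, adjusted p = 0.01376). Serpinf1, which encodes the secreted anti-angiogenic serpin PEDF, read 8.10 and 7.32 against 5.03 and 5.61 on day 6, 7.86, 8.15 and 8.08 against 6.47, 6.04 and 5.65 on day 12, and 8.43 and 8.11 against 6.42 and 6.97 on day 18. It fell by 1.98 ± 0.16 (adjusted p = 1.775e-08), with no overlap on any day.

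Single days gave fewer calls, as each rests on 2 or 3 arrays a side. On day 6, 19 of the 34 genes were lower, against 1.99% of all genes, on day 12 also 19, against 4.87%, and on day 18 11, against 2.24%. No member was higher on any of the 3 days, where 0.983%, 3.71% and 3.12% of all genes were. With only the compared groups in the fit, 12 were lower on day 6, and on day 18 16 were lower and 1, Fn1, was higher (0.47, adjusted p = 0.03467). Lower on all 3 days were Col3a1, Col4a2, Col5a1, Col5a2, Col6a1, Col6a2, Dcn, Pcolce, Postn, Serpinf1 and Thbs2. Col4a1, Col6a3, Col8a1, Fstl1, Serpinh1 and Sparc were lower on days 6 and 12 and did not pass on day 18. The day 6 count rests on 1 control array: replicate 1 lay above replicate 2 in 22 of the 23 genes that fell in MC38, by a median of 0.77, and without it 7 genes were lower. On day 18, 6 were lower without Nrp1-deleted replicate 1.

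Whether the effect changed between day 6 and day 18 of MC38 was tested within 1 array set. For no member did it change by adjusted p in limma (0.0175% of all genes had a lower and 0.0643% a higher effect), while 4 had an unadjusted p under 0.05, all towards a smaller fall on day 18. The share of all genes at that unadjusted limit was not counted, so these 4 are not read as a change of the effect. In control hosts, 4 genes were higher on day 18 than on day 6 and none lower, against 4.4% of all genes higher and 4.54% lower: Col14a1 by 1.75 ± 0.36, P4ha2 by 1.00 ± 0.28, Pcolce by 0.82 ± 0.26 and Plod1 by 0.68 ± 0.20 (adjusted p = 0.002706, 0.02398, 0.04406 and 0.03574). In Nrp1-deleted hosts, 5 were higher and none lower, against 1.19% and 0.749%: Col14a1 by 2.83, P4ha2 by 1.62, Serpinf1 by 1.38, Dcn by 1.29 and Col5a1 by 1.35. In controls the count was 2 without day 6 replicate 1 and 1 without day 6 replicate 2 or either day 18 array. In Nrp1-deleted hosts it was 3 without day 6 replicate 1 and 1 without day 18 replicate 2.

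Other probe sets of the same genes give a partly separate reading. The 23 genes that fell in MC38 had 19 further probe sets, of 16 genes. All 19 differences were below 0, from -2.20 to -0.02, and 9 were at -1 or lower. The genes were picked as falling on these same arrays, and the share of all probe sets below 0 was not counted. Some dim sets gave little: -0.06 for Col5a1 (used set -2.50), -0.31 for Col5a2 (used set -2.62) and -0.05 for Col8a1 (used set -1.04). Their mean signals were 3.16, 3.14 and 2.90. The 12 genes that fell in B16 had 7 further probe sets, of which 6 were below 0. There the second probe set of Serpinf1 gave 0.22 (used set -0.71) and that of Col3a1 -0.10 (used set -1.03).

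Markers of cells that make matrix were read beside these values in MC38. Of 15 fibroblast markers outside the matrix, Twist1 (-0.64), Prrx1 (-0.80) and Twist2 (-0.68) fell, Thy1, which T cells also carry, rose by 0.84, and 11 did not pass. In MC38 day 12 controls, 8 of the 15 were at or below the median of all values, Pdgfra, Pdgfrb, Fap and Cdh11 among them, and in Nrp1-deleted hosts 12 were. The summed signal of the 15 was carried by Pdpn and Thy1 (59.2% and 31.3% in day 12 controls, 44.2% and 47.5% in Nrp1-deleted hosts), so it says little of the others. Without Thy1 it ranged from 9.80 to 10.36 (log2) in day 12 controls against 9.36 to 9.80, from 11.02 to 11.05 on day 6 against 10.48 to 11.10, and from 10.12 to 10.25 on day 18 against 10.19 to 10.23. These sums were lower in Nrp1-deleted hosts on day 12, by a narrow gap at the nearest arrays, and overlapped on days 6 and 18. Pdpn made up most of what remained without Thy1 on each day, so these sums too say little of the other markers. The transcription factors Twist1, Twist2 and Prrx1 fell together with the matrix genes, and their part in the fall of matrix genes was not tested.

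No pericyte marker of 7, macrophage marker of 11, melanocytic marker of 11 or platelet marker of 6 passed the test in MC38 in either direction. In every MC38 group, 5 or 6 of the pericyte, 7 to 9 of the melanocytic and 3 or 4 of the platelet markers were at or below the median of all values. That limits what the lack of a call can show for these 3 lists. Of 13 endothelial markers, Flt1, Pecam1 and Ramp2 rose and none fell, and Cdh5, Tek, Tie1, Emcn, Cldn5 and Robo4 were at or below the median of all values in every MC38 group. Vil1 alone fell among 13 epithelial markers (-0.29), and 10 or 11 of them were dim in every group. The summed signal of the macrophage markers was nevertheless somewhat lower in Nrp1-deleted hosts on each MC38 day. It ranged from 14.82 to 14.84 in day 6 controls against 14.54 to 14.77, and from 15.30 to 15.31 in day 18 controls against 14.97 on both Nrp1-deleted arrays. On day 12 it reached from 14.65 to 14.82 against 14.48 to 14.65, the groups meeting without overlap. T cell markers rose (8 of 9, median 1.12), as did 3 of 9 leukocyte markers (Itgb2, Ptprc and Cd53). How far these shifts bear on the matrix genes was not tested.

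In B16 tumours, over the 3 days, 12 of the 34 genes were lower in Nrp1-deleted hosts and none was higher, where 12.3% of all genes were lower and 10.3% higher. The median difference was -0.28, against 0.01 over all genes. Sparc, Fn1, Serpinh1, Col4a1, Plod1, P4ha2, Pcolce and Col3a1 fell at least 2-fold, and Fstl1, Serpinf1, Dcn and Loxl2 by less. Without the 6 B16 day 18 arrays, 5 genes were lower and the median was -0.02, and the difference of Col3a1 turned to 0.02 (adjusted p = 0.983).

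In early B16 tumours no member passed in limma, where 0.292% of all genes were lower and 0.152% higher, and 1, Fn1 (-1.32, adjusted p = 0.1652), had an unadjusted p under 0.05. The share of all genes at that unadjusted limit was not counted. Without early Nrp1-deleted replicate 1 the count was 1. On day 12, 5 of the 34 were lower and none higher, against 9.17% and 7.8% of all genes: the glycoproteins Fn1 and Sparc, the chaperone gene Serpinh1, and the hydroxylase genes Plod1 and P4ha2. On day 18, 17 were lower and none higher, against 11.3% and 7.54%. They were those day 12 genes other than Fn1, together with Bgn, Col3a1, Col4a1, Col4a2, Col5a1, Col5a2, Col6a3, Dcn, Fstl1, Loxl2, Pcolce, Postn and Serpinf1. Days 12 and 18 lie in different array sets and their difference was not tested. Only Col4a1, Dcn and Serpinf1 had every Nrp1-deleted array below every control array on all 3 B16 days, against 3.84% of all genes. On days 12 and 18, 11 genes did so, against 9.02%. Early and day 12 arrays of Dcn lay between 2.79 and 3.30, all under their set's median of 3.79. Their order is therefore not read as a fall on those days. Among the 11, Col3a1, Fstl1 and Loxl2 also lay under that median on every day 12 array.

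Fn1 in B16 passed the single-day test on day 12 and on neither other day. It read 7.13 and 7.44 on early controls against 6.59 and 5.34, 10.01 and 10.49 on day 12 against 5.55 and 6.59, and 9.11, 9.05 and 9.50 on day 18 against 8.97, 8.22 and 9.54. On day 12 the control arrays stood over 3 units above the Nrp1-deleted ones, and on day 18 the groups overlapped. Over the 3 days the difference was -1.94 ± 0.21, and on day 12 -4.18 ± 0.39 (adjusted p = 2.856e-07 and 3.004e-08).

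Sparc read 6.26 and 5.78 on early controls against 6.97 and 5.48, 6.87 and 6.81 on day 12 against 3.99 and 3.95, and 9.29, 9.67 and 9.04 on day 18 against 6.08, 5.69 and 5.0. Serpinh1 read 5.90 and 6.23 against 6.50 and 5.21, then 6.24 and 6.33 against 4.23 and 4.93, then 8.86, 9.46 and 8.70 against 5.88, 5.56 and 4.31. Both overlapped early and were apart on days 12 and 18. The differences over the 3 days were -2.14 ± 0.24 for Sparc and -1.89 ± 0.25 for Serpinh1 (adjusted p = 2.967e-07 and 4.713e-06), and each was -3.75 on day 18.

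Plod1 and P4ha2 were the hydroxylases that fell in B16. Plod1 read 4.23 and 4.03 against 4.39 and 3.56 early, 5.32 and 5.33 against 3.64 and 3.70 on day 12, and 6.62, 6.65 and 6.56 against 4.78, 4.94 and 4.61 on day 18. P4ha2 read 3.44 and 3.85 against 4.15 and 3.30, then 4.85 and 4.53 against 2.92 and 3.36, then 5.86, 6.57 and 5.70 against 3.75, 3.80 and 4.17. As with Sparc, the early groups overlapped and the later ones did not. The differences were -1.21 ± 0.11 for Plod1 and -1.20 ± 0.15 for P4ha2 (adjusted p = 2.149e-08 and 1.804e-06). Plod2 differed by -0.06 (95% interval -0.45 to 0.33).

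**Figure D2:**
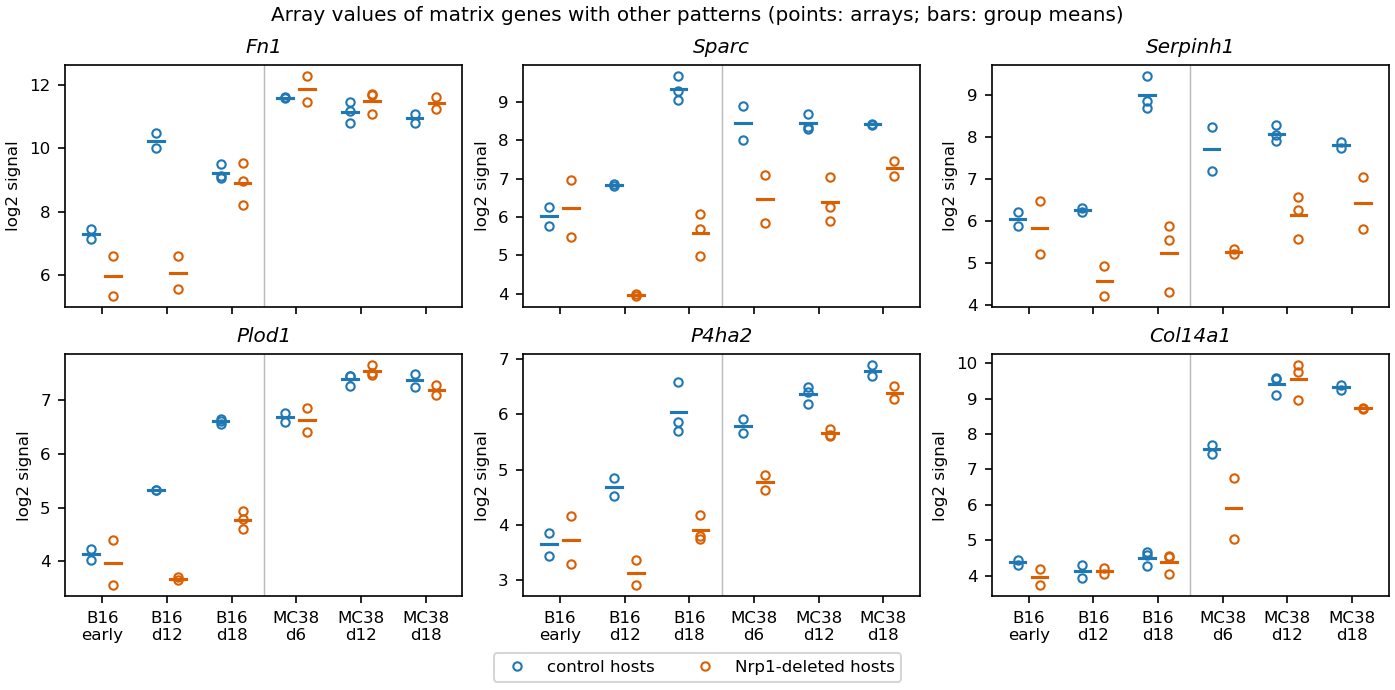
Log2 signal of 6 genes whose patterns differ from those of the fibrillar collagens, on each array (points) with group means (bars), by tumour and day; blue, control hosts; orange, Nrp1-deleted hosts. Fn1 is apart in B16 on day 12 and overlaps on day 18, Sparc, Serpinh1, Plod1 and P4ha2 are apart in B16 on days 12 and 18, and Col14a1 is low in B16 and overlaps in MC38 on day 12.

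The collagens that passed the test on a single B16 day did so on day 18. Col3a1 read 6.58, 8.10 and 6.47 on day 18 controls against 3.96, 3.56 and 4.25 in Nrp1-deleted hosts, and its early and day 12 arrays, of another set, lay between 3.01 and 3.77, under that set's median of 3.79. Col4a1 read 6.71, 6.70 and 6.0 against 3.95, 3.84 and 3.53 on day 18. Neither overlapped on that day, and the differences were -3.13 ± 0.35 and -2.69 ± 0.23 (adjusted p = 5.103e-07 and 1.217e-08). Pcolce read 5.94, 6.27 and 6.18 against 3.86, 3.75 and 4.12 on day 18, Fstl1 4.68, 5.48 and 4.50 against 2.75, 2.63 and 3.31, Dcn 3.84, 4.68 and 3.97 against 3.04, 2.72 and 2.59, and Serpinf1 5.78, 5.66 and 5.77 against 4.85, 3.92 and 4.46. These 4 were also apart on day 18, and fell by 2.22, 1.99, 1.38 and 1.33. All Nrp1-deleted arrays of Fstl1 and Dcn lay below 3.51, the median of the set, so the size of their fall may be limited by the bottom of the scale, which was not tested. Col5a1 fell by 1.31, Col5a2 by 1.30, Col6a3 by 1.03 and Col4a2 by 0.93 on that day. Among control arrays of day 18, replicate 2 lay above replicate 3 in 16 of the 17 genes that were lower, by a median of 0.70, and without replicate 2 the count was 14.

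Melanocytic and macrophage markers fell beside these genes in B16. All 11 macrophage markers fell over the 3 days (median -1.72), with 10 lower on day 12 (median -3.31) and 10 on day 18 (median -1.63). Their summed signal on day 12 was 13.60 to 13.61 in controls and 9.81 to 10.48 in Nrp1-deleted hosts, and on day 18 12.55 to 13.45 against 11.44 to 12.10. All 11 melanocytic markers, the pigment-cell genes of the tumour line, also fell (median -1.66), 9 of them on day 12 (median -1.91) and 11 on day 18 (median -3.24). Their sum was 11.57 to 11.77 against 9.09 to 10.09 on day 12 and 13.63 to 14.13 against 9.86 to 11.09 on day 18. In early B16, 1 macrophage marker and no melanocytic marker fell, with sums of 11.54 to 11.72 against 10.14 to 11.53 and of 11.44 to 11.47 against 10.98 to 12.06.

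Of 6 platelet markers, Pf4 and Ppbp fell in B16 (-4.02 and -2.30), Pf4 being also a macrophage transcript, while Gp9 and Gp1bb were at or below the median of all values in every group. Of 15 fibroblast markers 1 fell, and 12 were dim on day 18 in both genotypes, Pdgfra, Pdgfrb and Fap among them. Without Thy1, which held 83.9% of it in day 18 controls, their summed signal was 7.80 to 7.97 against 6.90 to 7.03 on day 12 and 7.92 to 8.39 against 7.04 to 7.48 on day 18. Pdpn held 8.26% of the full sum in day 18 controls and 1.61% in Nrp1-deleted hosts. On day 12 it held 5.75% in controls and ranked below Prrx1, at 0.442%, in Nrp1-deleted hosts. Pdpn was the largest part of what remained without Thy1 in these controls, so the sums say little of the other markers. The median difference of the 15 was -0.03 on day 12 and -0.12 on day 18, against 0.04 and 0.002 over all genes. T cell markers rose in 6 of 9. The part of these markers in the fall of the B16 matrix genes was not tested.

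Within B16 controls, 3 members were higher on day 12 than early and none lower, against 9.14% and 6.92% of all genes: Fn1 by 2.97 ± 0.39, Plod1 by 1.19 ± 0.20 and P4ha2 by 1.04 ± 0.28 (adjusted p = 8e-06, 0.000173 and 0.01019). Of 11 macrophage markers, 10 were higher there too (median 1.99). In Nrp1-deleted hosts 1 member was lower on day 12 than early, Sparc by 2.26 ± 0.43 (adjusted p = 0.000725), against 7.09% of all genes, and none was higher, against 9.14%. Without early Nrp1-deleted replicate 2 that count of members was 4. Of the markers in the same comparison, 9 of 11 melanocytic markers (median -1.96) and 3 of 11 macrophage markers were lower. The effect of the deletion was more negative on day 12 than early for 4 members and less negative for none, against 4.41% and 1.88% of all genes: Fn1 (-2.86), Sparc (-3.08), P4ha2 (-1.63) and Plod1 (-1.50). Of the markers, 10 of 11 macrophage (median -2.57) and 9 of 11 melanocytic (median -2.07) had a more negative effect as well. These tests share the early and day 12 arrays and are not separate lines of evidence, and the part of the markers was not tested.

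The effects in the 2 tumours overlapped in part. Lower in both were Col3a1, Col4a1, Dcn, Fstl1, P4ha2, Pcolce, Serpinf1, Serpinh1 and Sparc, which is 39.1% of the 23 MC38 genes and 75% of the 12 B16 genes. Of all genes, 3.32% were lower in both, which is 26.9% of those lower in MC38 and 26.9% of those lower in B16. Lower in B16 and not called in MC38 were Fn1, Loxl2 and Plod1. Col1a1, Col1a2, Col12a1, Col15a1, Col18a1, Lox, Lum and Mfap5 were called in neither. Of the 17 genes lower on B16 day 18, 15 (88.2%) were among the 23 of MC38, which is 65.2% of that list. Over all genes these shares were 31.4% and 28.7%. Over all 6 settings of tumour and day, 24 members were lower and none higher, against 17.9% of all genes lower and 11% higher, with a median of -0.87.

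**Figure D3:**
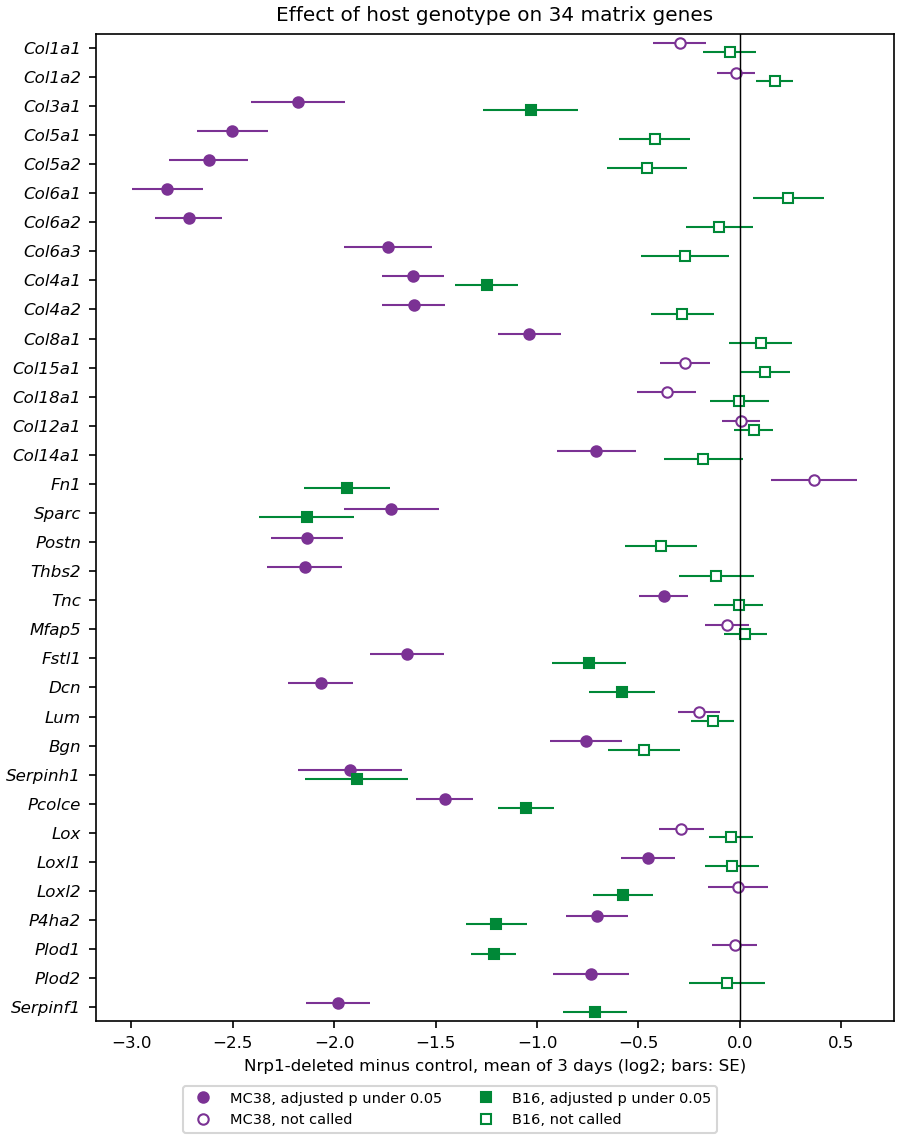
Difference between Nrp1-deleted and control hosts (log2, mean of 3 days) for the 34 genes in MC38 (purple circles) and B16 (green squares), with standard errors as bars; filled symbols have an adjusted p under 0.05. Col6a1, Col6a2 and Thbs2 lie at -2 or lower in MC38 and near 0 in B16, Fn1 and Plod1 fell in B16 and were not called in MC38, and Serpinh1 and Sparc fell in both.

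The difference of the effects was tested directly as the B16 effect minus the MC38 effect, each a mean over 3 days, which crosses array sets. It was called for 15 members: 13 were higher, that is less negative in B16, against 6.75% of all genes, and 2 lower, against 7.22%. The largest were Col6a1 at 3.06 and Col6a2 at 2.62, then Col5a2 at 2.16, Col5a1 at 2.08 and Thbs2 at 2.03 (adjusted p = 2.1e-07, 6.8e-07, 1.3e-05, 6.9e-06 and 1.3e-05). Fn1 (-2.30) and Plod1 (-1.19) were more negative in B16. For Col3a1 and Fstl1 the order of the 3-day means did not hold on day 18, where both fell further in B16. Col3a1 went from a control mean of 7.05 to 3.92 in B16 and from 10.58 to 8.90 in MC38. Fstl1 went from 4.89 to 2.90 and from 6.74 to 5.68. Among others of the 13, some day 18 differences were close between the tumours. Col6a3 gave -1.03 in B16 and -1.07 in MC38, Dcn -1.38 and -1.51, Serpinf1 -1.33 and -1.58, and Col8a1 -0.46 and -0.59. Others stayed apart on that day, such as Col6a1 (0.03 and -2.63) and Col5a2 (-1.30 and -2.30). The difference between tumours on day 18 alone was not tested. For Serpinh1 (0.03), Sparc (-0.42) and P4ha2 (-0.50) the difference did not pass (adjusted p = 0.97, 0.46 and 0.13).

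Most of the 13 were dim in B16 control hosts. In 10 of them the control mean was at or below the median of all values in at least 2 of the 3 B16 groups, and in Col6a1 and Thbs2 in all 3, while none of the 13 was so in any MC38 control group. The counts were the same, 10, 2 and 0, with each set's own median as the limit. The room for a fall was limited in these genes. The part of this in the difference was not tested. Col6a1 stayed between 2.65 and 3.59 on the B16 arrays. MC38 day 12 and B16 day 18 lie in 1 array set, so their control arrays can be set side by side, although the days differ. Col6a1 read 7.41, 7.40 and 7.52 in MC38 and 3.1, 3.25 and 3.37 in B16, Dcn 8.88, 9.05 and 8.94 against 3.84, 4.68 and 3.97, and Col14a1 9.58, 9.12 and 9.55 against 4.67, 4.57 and 4.26. Sparc was the higher in B16, at 9.29, 9.67 and 9.04 against 8.34, 8.69 and 8.31, and Serpinh1 likewise, at 8.86, 9.46 and 8.70 against 7.92, 8.30 and 8.06.

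**Figure D4:**
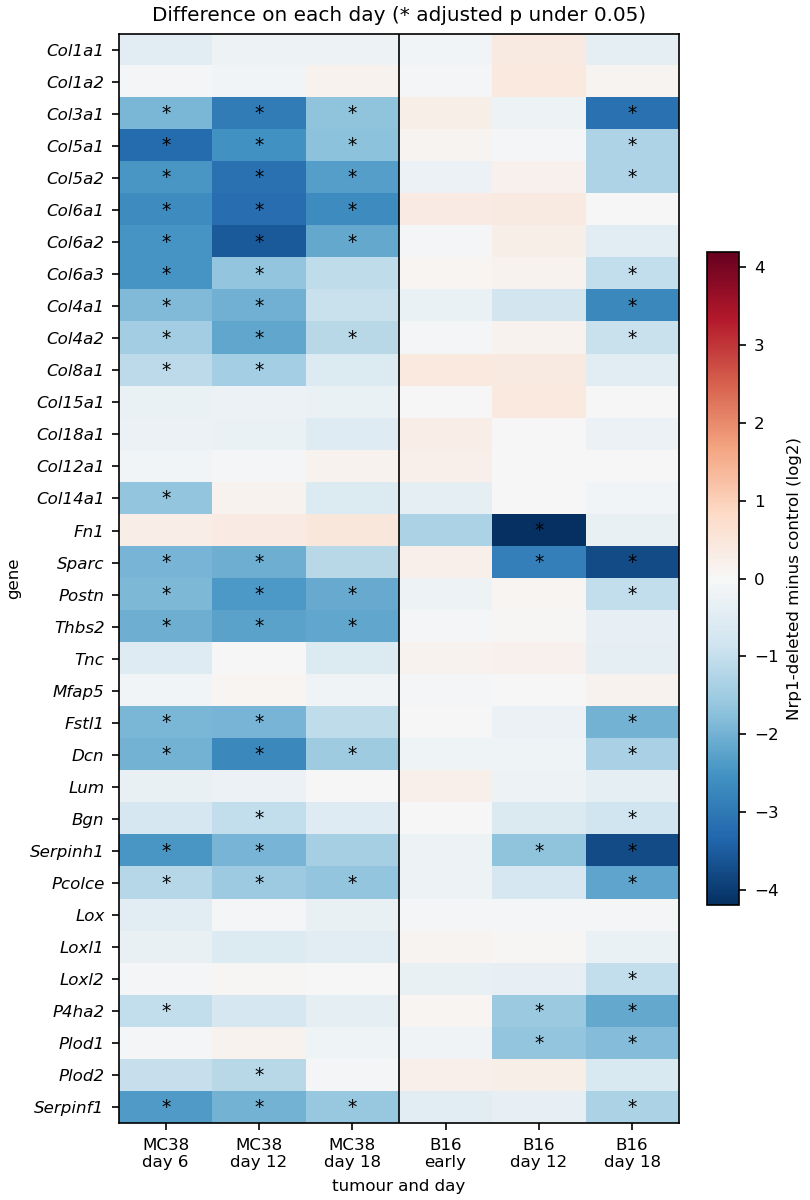
Difference between Nrp1-deleted and control hosts (log2, colour) for each of the 34 genes in each tumour and day; stars mark an adjusted p under 0.05. The MC38 columns hold 19, 19 and 11 stars on days 6, 12 and 18, none stands in the early B16 column, 5 stand on B16 day 12 and 17 on day 18.

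Other matrix genes, outside the 34, were read beside them. Of 50 such genes, 10 were lower in MC38 and none higher, where 12.3% of all genes were lower, with a median of -0.11 against -0.06 over all genes. The lower ones included Matn2, a matrilin (-2.0), Dpt, dermatopontin (-1.51), Col5a3, the third type V chain (-1.37), and Col16a1 (-0.97). In B16, 11 of the 50 were lower and 1 higher, with a median of -0.05 against 0.01 and the same 12.3% of all genes lower. Of 18 other genes of collagen biosynthesis, 5 were lower in MC38, with a median of -0.08, among them P3h3, a prolyl 3-hydroxylase (-1.15), Pcolce2 (-0.68) and Crtap, a partner of prolyl 3-hydroxylase 1 (-0.47), and 1 was higher, Mia3, which loads procollagen into transport carriers (0.29). In B16, 5 of these 18 were lower and none higher, P3h3 (-0.97) and Crtap (-0.37) among them.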

How the data were processed

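Affymetrix arrays of 28 samples were read as the deposited log2 values, for which the authors used RMA and Partek 6.6 (submitters' processing notes), on biotin-labelled cRNA amplified in 2 cycles, per the labels' protocols. Quantiles differed by at most 0.0914 (root mean square, log2) within each of 3 array sets and by 0.118 to 0.367 between them, so RMA may have been run on each set apart. Of 45141 probe sets, 28898 name 1 gene; each of 17097 genes was represented by its probe set with the highest mean. The members, lists and tests were chosen with earlier results of these data known. All members may be named; array values are given for the 12 with the smallest adjusted p in MC38, for the leading member of other roles and, chosen after their values were seen, for Fn1, Sparc, Fstl1, Serpinh1, Plod1, P4ha2 and, on day 18, Col6a3. Other lists give up to 4 genes with the smallest adjusted p.

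limma 3.58.1 (R 4.3.3) fitted a mean per group over all 28 arrays, without a filter, with an intensity trend and Benjamini-Hochberg adjustment at 0.05, and was tested on simulated data. All tests are 2-sided. Alternatives were a filter on dim genes, the mean over probe sets, cyclic loess, centring, variance models, array weights, the compared groups only, a replicate block, each array left out, and the B16 day 18 or MC38 day 12 arrays left out. The number of arrays limits the precision. Promoters are from RefSeq (GRCm38.p6). The lowest correlation within a group was 0.984, and 0 pairs of arrays were identical.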

Additional observations from a re-analysis of the deposited data

Results flagged for a closer look

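The effect of Nrp1 deletion differed between the tumours by a test of the difference itself (B16 effect minus MC38 effect, log2) for 15 of the 34 genes. It was less negative in B16 for Col3a1 (1.15), Col5a1 (2.08), Col5a2 (2.16), Col6a1 (3.06), Col6a2 (2.62), Col6a3 (1.46), Col4a2 (1.33), Col8a1 (1.14), Postn (1.74), Thbs2 (2.03), Fstl1 (0.90), Dcn (1.49) and Serpinf1 (1.27), and more negative for Fn1 (-2.30) and Plod1 (-1.19). These are means over 3 days and cross array sets, and on day 18 Col3a1 and Fstl1 fell further in B16 than in MC38. For Col6a3, Dcn, Serpinf1 and Col8a1 the day 18 differences were close between the tumours. Of the 13 less negative genes, 10 had B16 control means at or below the median of all values in at least 2 of 3 groups, Col6a1 and Thbs2 in all 3. The room for a fall was limited there, and the part of this in the sizes given was not tested. The effect also differed between B16 day 12 and the early day, being more negative on day 12, for Fn1 (-2.86), Sparc (-3.08), P4ha2 (-1.63) and Plod1 (-1.50). With 2 or 3 arrays in a group, no outlier test was made on single groups.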

How the results depend on the processing

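The count of members lower with deletion was 23 in MC38 (21 to 24 with 1 array left out), 12 in B16 (12 to 15) and 24 over all settings (22 to 25). By day it was 19 (7 to 17) on MC38 day 6, 19 (18 to 20) on day 12 and 11 (6 to 11) on day 18, and 0 (0 to 1), 5 (4 to 5) and 17 (14 to 18) in B16. The difference between tumours was called for 15 (13 to 16). Over time the counts were 4 (1 to 2) in MC38 controls, 5 (1 to 6) in MC38 Nrp1-deleted hosts, 0 (0 to 0) for the change of effect, 3 (2 to 3) in B16 controls, 1 (1 to 4) in B16 Nrp1-deleted hosts and 4 (3 to 4) for the change of effect.

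With only the compared groups in the fit, 12 were called on MC38 day 6, 17 on day 18 (16 lower, 1 higher), 2 over time in MC38 Nrp1-deleted hosts and 5 in B16 controls. Array weights gave 1 in early B16 and 3 over time in MC38 Nrp1-deleted hosts. Cyclic loess gave 2 over time in MC38 controls and 2 in B16 Nrp1-deleted hosts, and the mean over probe sets gave 2 for the change of effect in B16. Without the B16 day 18 arrays, 5 were called in B16 and Col3a1 turned to 0.0162. The cause of these changes was not tested. The shares of all genes under the other fits, those with arrays left out among them, are not given here. Of single genes in MC38, Tnc lost its call with the mean over probe sets (adjusted p = 0.1013), cyclic loess, centring, the compared groups only and the replicate block, Col14a1 (0.05234) and Loxl1 (0.1078) lost theirs with the mean over probe sets, where Col18a1 (0.005594) and Lox (0.01376) gained one, and Bgn, Loxl1 and Plod2 without the day 12 arrays. Lox also passed without a variance trend (0.04911), and Bgn passed in B16 with the filter on dim genes (0.04123) and the robust trend (0.04962). Serpinf1 in B16 was at -0.25 (adjusted p = 0.2487) with the mean over probe sets.

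Deviations of same-numbered arrays correlated from -0.28 to 0.20 over 14 pairs. Where a group held 2 arrays both pairs give the same value by construction, so the 14 are not separate readings. On B16 day 18 the correlations were 0.095, 0.103 and 0.196. These values cannot settle whether replicate numbers pair the arrays, and the main fit did not pair them. With the replicate block, 22 members were called in MC38, 12 in B16, 24 over all settings and 14 between tumours, and no count moved by over 1.5 times.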
